A study of Mus musculus with 12 samples.

Results

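The Wnt ligands, receptors and inhibitors of the mouse mammary gland were followed in HER2-driven tumors and in benign mammary tissue. The genes were chosen by symbol as the Wnt, Frizzled (Fzd), secreted Frizzled-related protein (Sfrp) and Dickkopf (Dkk) families, together with Axin2, Lgr4, Lgr5, Lgr6, Rspo1, Rspo2, Rspo3, Lef1, Rnf43, Znrf3, Wif1 and Nkd1. The count table held 43 of these genes among 16411 in all, and Rspo2 had no row. RNA was sequenced from whole tissue of female mice of the MMTV/neu(ndl)-YD5 line on an FVB background, with 6 tumors and 6 benign samples that came from different mice. Both groups carried the transgene, in which the MMTV promoter drives an activated form of neu, the rodent HER2 gene, in mammary epithelium, with a deletion (ndl) and a restored signaling site (YD). The benign samples were mammary tissue of tumor-bearing mice with no tumor to be seen, taken as far as possible from the excised tumor. The body region of the gland can therefore differ between samples. No group was treated, the labels gave no age, and the paper gives only the span over which mice were watched for tumors. The benign samples are therefore transgenic tissue and not wild-type gland.

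Wnt proteins are secreted lipid-bearing ligands that bind Frizzled receptors and, in the canonical branch, the coreceptors Lrp5 and Lrp6, after which beta-catenin escapes degradation and joins TCF/LEF factors on target genes such as Axin2 and Nkd1. Secreted Frizzled-related proteins and Wif1 bind Wnts outside the cell and Dickkopf proteins act on the coreceptors, whereas R-spondins, through Lgr4, Lgr5 and Lgr6, protect Frizzled receptors from removal by the ubiquitin ligases Rnf43 and Znrf3. In the mammary gland Wnt4 and Rspo1 are known as local signals of hormone-dependent branching and of basal progenitor cells.

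Values are CPM, that is counts relative to library size after TMM scaling in edgeR, and a gene was called higher or lower where edgeR's quasi-likelihood test gave an adjusted p under 0.1 over the 13191 genes that passed its expression filter. Total counts per sample were 5240853 to 8588567, and 3 counts corresponded to 0.414 CPM at the mean library size. The tissues differed broadly in their cell markers. The summed levels of 8 white adipocyte markers were 8199 to 18626 CPM in benign tissue and 26.8 to 116 CPM in tumors, those of 8 basal and myoepithelial markers 742 to 1640 and 33.3 to 112 CPM, those of 8 fibroblast markers 3428 to 7617 and 352 to 751 CPM, and those of 8 endothelial markers 661 to 1285 and 90.7 to 112 CPM, with all 8 genes of each list called lower in tumors. Luminal epithelial markers summed to 956 to 2612 CPM in benign tissue and 3061 to 4565 CPM in tumors, with 7 of 8 called higher and 1 lower. No marker of these lists was at 0 in all samples of a group. Skeletal muscle markers summed to 35285 to 90704 CPM in benign samples 3, 4 and 6 and to 32.4 to 385 CPM in the other benign samples, and to 150.0 CPM in tumor 5 and 0.843 to 9.04 CPM in the other tumors. Brown adipocyte markers summed to 3118 CPM in benign sample 4, 872 CPM in benign sample 6 and 44.5 to 194 CPM in the other benign samples, and lymphocyte markers to 1200 CPM in benign sample 1 and 19.6 to 33.7 CPM in the others. These samples and tumor 5, which stood apart for several Wnt genes, are named where a value rests on them.

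Promoters of 4 members are shown because they span the results that follow. Axin2 and Nkd1, both targets of beta-catenin, fell in tumors, Rnf43, another target, rose, and Wnt11 was the called ligand whose window held the core letters bound by TCF/LEF factors. Each window runs from 250 bases before the RefSeq start to 50 bases after it (GRCm38.p6, 5′ to 3′ on the gene's strand), and capitals mark the core motif CTTTGA or its other-strand form TCAAAG.
Axin2, chr11:108920099-108920398, plus strand: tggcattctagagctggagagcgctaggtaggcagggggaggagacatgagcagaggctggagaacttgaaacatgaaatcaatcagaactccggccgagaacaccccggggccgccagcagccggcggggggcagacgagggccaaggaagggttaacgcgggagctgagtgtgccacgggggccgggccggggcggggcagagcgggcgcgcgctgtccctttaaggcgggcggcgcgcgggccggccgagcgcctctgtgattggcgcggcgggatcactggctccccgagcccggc
Nkd1, chr8:88527383-88527682, plus strand: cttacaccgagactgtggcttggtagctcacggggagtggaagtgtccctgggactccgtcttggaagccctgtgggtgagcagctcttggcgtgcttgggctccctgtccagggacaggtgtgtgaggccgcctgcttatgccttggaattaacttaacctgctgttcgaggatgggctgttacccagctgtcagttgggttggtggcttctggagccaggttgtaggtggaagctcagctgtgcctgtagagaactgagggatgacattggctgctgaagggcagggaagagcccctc
Rnf43, chr11:87662837-87663136, plus strand: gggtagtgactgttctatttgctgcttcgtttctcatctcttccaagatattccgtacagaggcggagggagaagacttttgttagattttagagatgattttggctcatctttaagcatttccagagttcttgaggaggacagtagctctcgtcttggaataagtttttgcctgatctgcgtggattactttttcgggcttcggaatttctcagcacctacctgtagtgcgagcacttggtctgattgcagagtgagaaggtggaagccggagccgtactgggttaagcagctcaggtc
Wnt11, chr7:98834862-98835161, plus strand: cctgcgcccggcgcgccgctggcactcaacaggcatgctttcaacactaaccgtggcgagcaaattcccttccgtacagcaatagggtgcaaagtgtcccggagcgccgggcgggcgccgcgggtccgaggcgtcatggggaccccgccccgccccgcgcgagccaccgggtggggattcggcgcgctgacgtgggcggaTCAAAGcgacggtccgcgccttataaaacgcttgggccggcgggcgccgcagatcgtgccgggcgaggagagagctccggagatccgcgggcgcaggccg
The letters were found on either strand in 16.0% of 32851 windows of the same length in the mouse genome and in 4 of the 36 windows of the members (11.1%), which covered 29 of the 43 genes. The 4 windows belonged to Fzd1, Lef1, Wnt5b and Wnt11, and in Wnt11 the letters began 50 bases before the start. The Axin2, Nkd1 and Rnf43 windows shown held neither form of the motif, which says only that these letters are not in these 300 bases.

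Of the 43 genes, 31 passed the expression filter. Tumors had higher levels of 9 and lower levels of 16, against a background of 28.2% of all tested genes called higher and 34.8% called lower (63.0% in either direction). The median log2 fold change was -0.78 over the 31 genes and -0.06 over all genes tested. All 6 tumors lay above all 6 benign samples for 5 genes and below them for 11, where the background was 14.7% and 21.2% of tested genes. A gene could pass the filter through the group in which it was high, so these counts describe the members that passed and not the families. Where at least 10 counts were required in every sample, 16 members remained, with 8 higher and 6 lower and a median log2 fold change of 0.26, against 32.8% higher and 28.9% lower and a median of 0.04 over 11227 genes. In whole tissue, fewer cells of a type and less RNA per cell cannot be told apart.

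**Figure D1:**
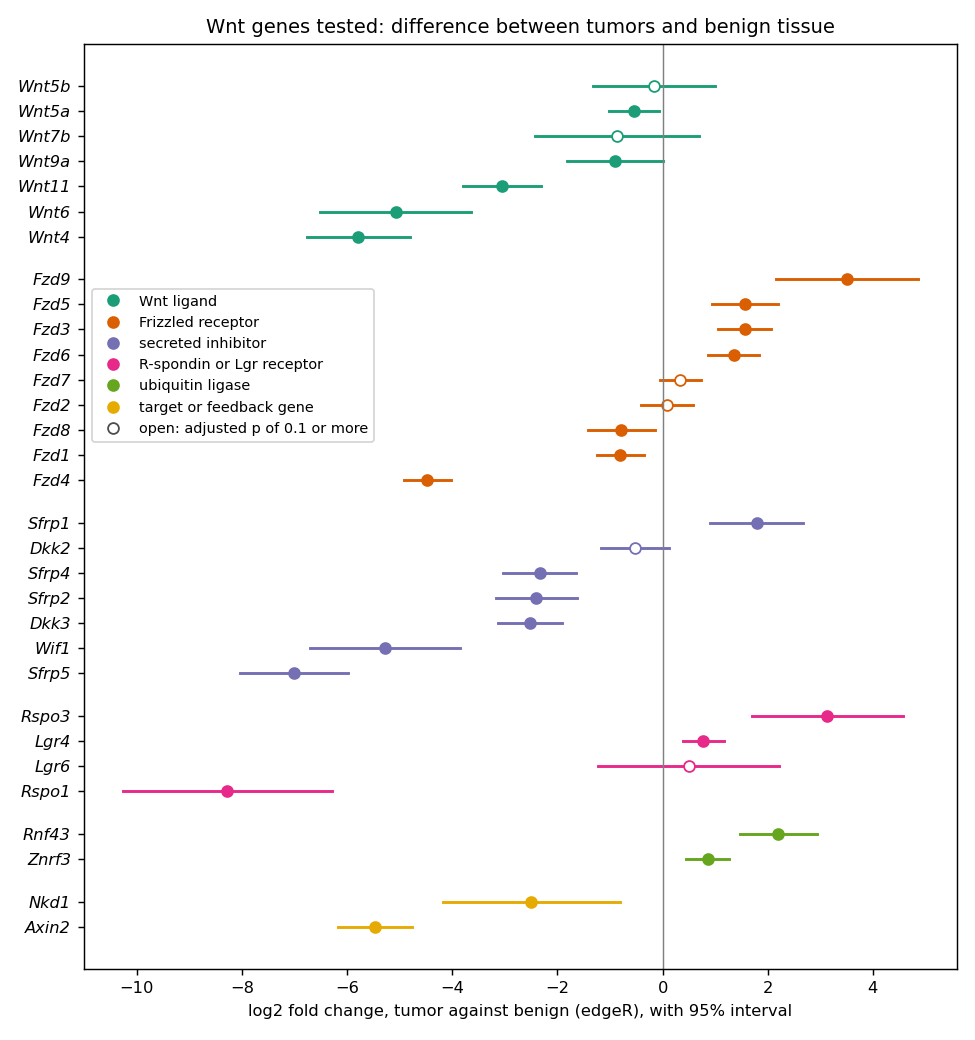
Log2 fold change (x axis, tumor against benign, edgeR) with its 95% interval for each of the 31 Wnt genes tested, grouped and coloured by role. Filled points passed an adjusted p of 0.1 and open points did not. All 7 Wnt ligands lie left of 0, the Frizzled receptors spread from -4.47 (Fzd4) to 3.51 (Fzd9), and Axin2 lies at -5.47.

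The table held 16 Wnt ligands, and the mean level of each was lower in tumors than in benign tissue. Of the 7 that passed the filter, 5 were called lower, 0 higher, and Wnt5b and Wnt7b were not called, where 34.8% of all tested genes were lower and 28.2% higher. The ligands could pass the filter through the benign group alone, and some of the 16 means rest on few reads, such as 7 counts in benign tissue and 1 in tumors for Wnt1 and 10 and 1 for Wnt8b. Wnt4, a canonical ligand of the luminal epithelium that acts after progesterone, was at 20.9 to 58.3 CPM (median 42.3) in benign tissue and 0 to 1.20 CPM (median 0.791) in tumors, and no tumor came near the benign range. Its log2 fold change was -5.79, SE 0.45, adjusted p = 3.0e-07 by edgeR. Wnt6 was at 2.14 to 10.5 CPM (median 4.16) in benign tissue and 0 to 0.384 CPM (median 0.0778) in tumors, where 6 counts were found in all 6 libraries together (log2 fold change -5.08, SE 0.66, adjusted p = 3.0e-05 by edgeR). Wnt11, a ligand mainly of the beta-catenin-independent branch, was at 3.10 to 9.08 CPM (median 5.70) and 0.413 to 1.15 CPM (median 0.544), again without overlap (log2 fold change -3.06, SE 0.34, adjusted p = 7.0e-06 by edgeR).

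Smaller differences were measured for the other ligands with sizeable levels. Wnt5a, the main ligand of the beta-catenin-independent branch, ran from 28.3 to 42.0 CPM (median 36.0) in benign tissue and from 14.8 to 34.6 CPM (median 23.0) in tumors, and the ranges overlapped. Its log2 fold change was -0.54, SE 0.22, adjusted p = 0.053 by edgeR, and the call was lost without benign sample 2, tumor 1, tumor 4 or tumor 5. The call was also lost without benign samples 3, 4 and 6 (log2 fold change -0.57, adjusted p = 0.145 by edgeR). Wnt9a had 2.50 to 10.3 CPM (median 6.16) in benign tissue and 1.08 to 5.36 CPM (median 3.28) in tumors, with a log2 fold change of -0.91, SE 0.42, adjusted p = 0.085 by edgeR. Its 95% interval of -1.82 to 0.01 included 0, the call was kept in 3 of 12 fits that left out 1 sample (benign sample 1, benign sample 5 or tumor 2), and the value was -0.24 without benign samples 3, 4 and 6. Wnt5b varied widely among the tumors, from 3.58 CPM in tumor 5 and 7.32 CPM in tumor 1 to 58.9 CPM in tumor 3, around a benign range of 15.3 to 45.5 CPM, and its log2 fold change of -0.17 had an interval of -1.33 to 0.99. Wnt7b, a canonical ligand, was at 6.30 to 16.4 CPM (median 7.28) in benign tissue and 0.156 to 16.2 CPM (median 2.42) in tumors. The log2 fold change of Wnt7b was -0.87 with an interval of -2.43 to 0.69, and it was called lower, at -1.77, where tumor 3 was left out.

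The 9 ligands below the filter were Wnt1, Wnt2, Wnt2b, Wnt8a, Wnt8b, Wnt9b, Wnt10a, Wnt10b and Wnt16. Their single values were compared by a two-sided exact permutation test of log2 CPM over the 924 regroupings, whose smallest p is 0.00216, without adjustment over the 43 members so compared. Wnt10a, a ligand of skin appendages, had 0.713 to 3.43 CPM in benign tissue and 0 counts in every tumor, at least 4.26-fold lower against a floor of 3 counts per library (exact p = 0.00216). Wnt10b, another canonical ligand of the early mammary rudiment, had 1.07 to 2.98 CPM (median 1.81) and 0.110 to 0.481 CPM (median 0.347) (exact p = 0.00216). For both, the tumors lay below every benign sample, and with genes of at least 1 count admitted to the edgeR fit their adjusted p over all 16411 genes were 0.00033 and 0.00026. Wnt2, a stromal ligand, was at 0.926 to 11.9 CPM (median 4.08) in benign tissue and 0.135 to 1.09 CPM (median 0.549) in tumors (exact p = 0.00649), with overlap at the low end. Wnt1, the classical site of MMTV insertion, had 1 count in 1 tumor and at most 0.528 CPM in benign tissue, so no difference was detectable at this depth (exact p = 0.455). Wnt8a and Wnt8b also had 1 count each in the tumors. Wnt2b, lower in tumors by its mean, had an exact p of 0.0325, and the values for Wnt16 and Wnt9b were 0.139 and 0.199. The Wnt2b value rests on 14 counts in all benign samples and 4 in all tumors, with overlapping ranges.

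Levels of different genes were compared only per length, as CPM per kilobase of annotated exon. On this scale the benign ligands were led by Wnt5b (11.9 CPM per kilobase), Wnt4 (9.98) and Wnt5a (4.54), all values being means of 6 samples. In tumors Wnt5b (10.6) and Wnt5a (3.11) were first, and Wnt4 stood at 0.173 CPM per kilobase.

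**Figure D2:**
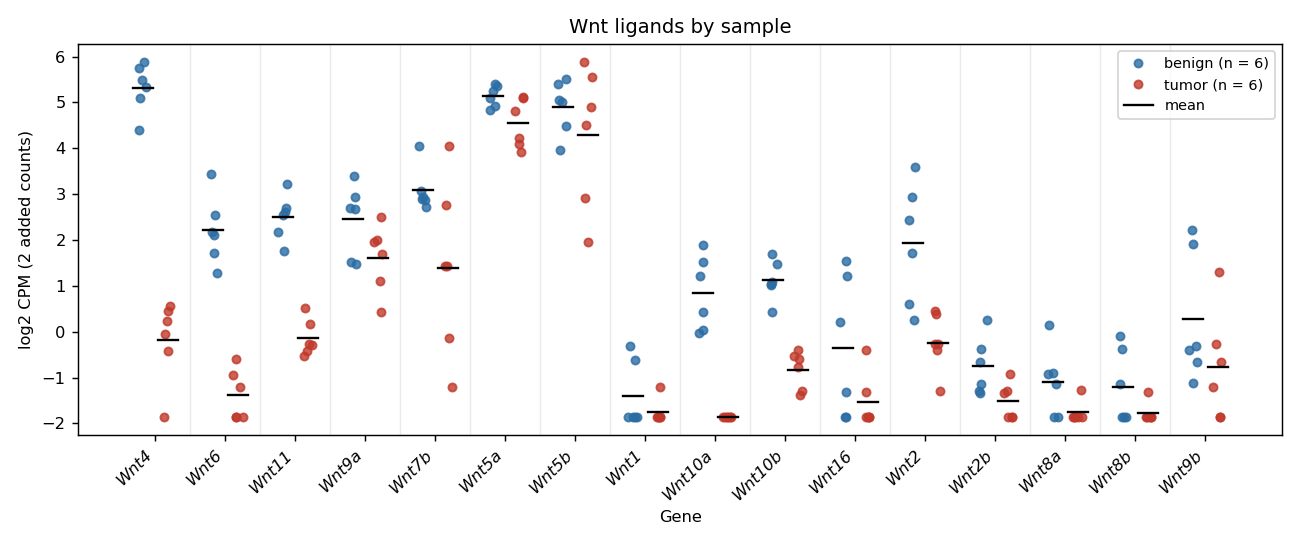
Level of each of the 16 Wnt ligands (x axis) as log2 CPM with 2 added counts (y axis) in 6 benign samples and 6 tumors, 1 point per sample, with bars at the group means. Wnt4, Wnt6, Wnt11, Wnt10a and Wnt10b show no overlap between groups, whereas Wnt5a, Wnt5b and Wnt7b overlap.

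Of 10 Frizzled receptors in the table, 9 were tested, and 4 were higher, 3 lower and 2 (Fzd2 and Fzd7) not called. The share called lower, 33.3%, was near the 34.8% of all tested genes, and the share called higher was 44.4%, where all tested genes had 28.2%. Of the 4 higher receptors, Fzd9 passed the filter through the tumors, with 2 to 70 counts per benign sample and 164 to 511 per tumor. It did not remain where at least 10 counts were required in every sample. Fzd4, a receptor of Wnts and Norrin known for its role in endothelium, fell most. It was at 222 to 435 CPM (median 304) in benign tissue and 10.9 to 16.7 CPM (median 14.4) in tumors, with every tumor far below every benign sample, and the log2 fold change was -4.47, SE 0.21, adjusted p = 4.8e-09 by edgeR. Fzd1 was at 42.6 to 80.8 CPM (median 51.1) and 22.1 to 45.8 CPM (median 33.9), with a narrow overlap of the ranges (log2 fold change -0.81, SE 0.21, adjusted p = 0.0051 by edgeR). Fzd8 was at 11.5 to 18.2 CPM (median 14.2) and 4.45 to 16.4 CPM (median 6.33) (log2 fold change -0.78, SE 0.30, adjusted p = 0.038 by edgeR). Tumor 5 alone, at 16.4 CPM, lay among the upper benign values of Fzd8, and its call was lost without tumor 4, without tumor 6, without benign samples 4 and 6 or without benign samples 3, 4 and 6. Fzd10, below the filter, was at 1.603 to 6.60 CPM (median 3.44) and 0.128 to 0.481 CPM (median 0.188), with all tumors below all benign samples (exact p = 0.00216).

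The 4 receptors that rose did so in every tumor. Fzd9 was at 0.250 to 9.23 CPM (median 2.86) in benign tissue and 22.6 to 71.6 CPM (median 34.6) in tumors (log2 fold change 3.51, SE 0.62, adjusted p = 3.6e-04 by edgeR). Its benign values were 9.23, 3.56 and 6.21 CPM in samples 3, 4 and 6, which held the skeletal muscle transcripts, and 0.926, 2.15 and 0.250 CPM in the others. Without those 3 samples the log2 fold change was 5.24. Samples 4 and 6 also differ from the others in fat and basal markers, and the part of muscle in the benign level was not tested. Fzd5 was at 14.9 to 20.8 CPM (median 16.1) in benign tissue and 33.5 to 111 CPM (median 37.9) in tumors (log2 fold change 1.56, SE 0.29, adjusted p = 5.5e-04 by edgeR). Fzd6, a receptor of planar cell polarity, had 25.4 to 44.3 CPM (median 30.0) and 57.3 to 143 CPM (median 73.1) (log2 fold change 1.35, SE 0.23, adjusted p = 2.2e-04 by edgeR). For both, tumor 5 was the highest sample, at 111 CPM for Fzd5 and 143 CPM for Fzd6, and without it the other tumors still lay above all benign samples, at 33.5 to 44.7 CPM and 57.3 to 78.2 CPM. Fzd3, also a polarity receptor, was at 6.75 to 16.5 CPM (median 11.96) and 25.4 to 42.8 CPM (median 34.9) (log2 fold change 1.56, SE 0.23, adjusted p = 8.6e-05 by edgeR). Fzd7, which marks basal progenitors in the gland, was at 65.9 to 97.7 CPM (median 77.9) and 70.7 to 137 CPM (median 95.4), with overlap. The interval of its log2 fold change ran from -0.05 to 0.73 (adjusted p = 0.13 by edgeR). Fzd7 was called higher in 4 of 12 fits that left out 1 sample (benign sample 2, tumor 1, tumor 4 or tumor 6). With all samples, it was also called higher by DESeq2 (adjusted p = 0.096). The same held where at least 10 counts were required in every sample (log2 fold change 0.39, adjusted p = 0.082 by edgeR). Fzd2 had a log2 fold change of 0.08 with an interval of -0.41 to 0.57.

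Per length, the mix of Frizzled transcripts differed between the groups. Fzd4 stood at 46.9 CPM per kilobase in benign tissue and 2.11 in tumors, which was 47.3% and 2.48% of the summed Frizzled level. Tumors were led by Fzd7 (22.2 CPM per kilobase), Fzd9 (18.5) and Fzd6 (17.0), where the benign values were 17.5, 1.62 and 6.65. These shares are a description and were not tested. All 8 endothelial and all 8 white adipocyte markers fell together with Fzd4, as did all 8 fibroblast and all 8 basal and myoepithelial markers. The part of any of these cells in the fall of Fzd4 was not tested.

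**Figure D3:**
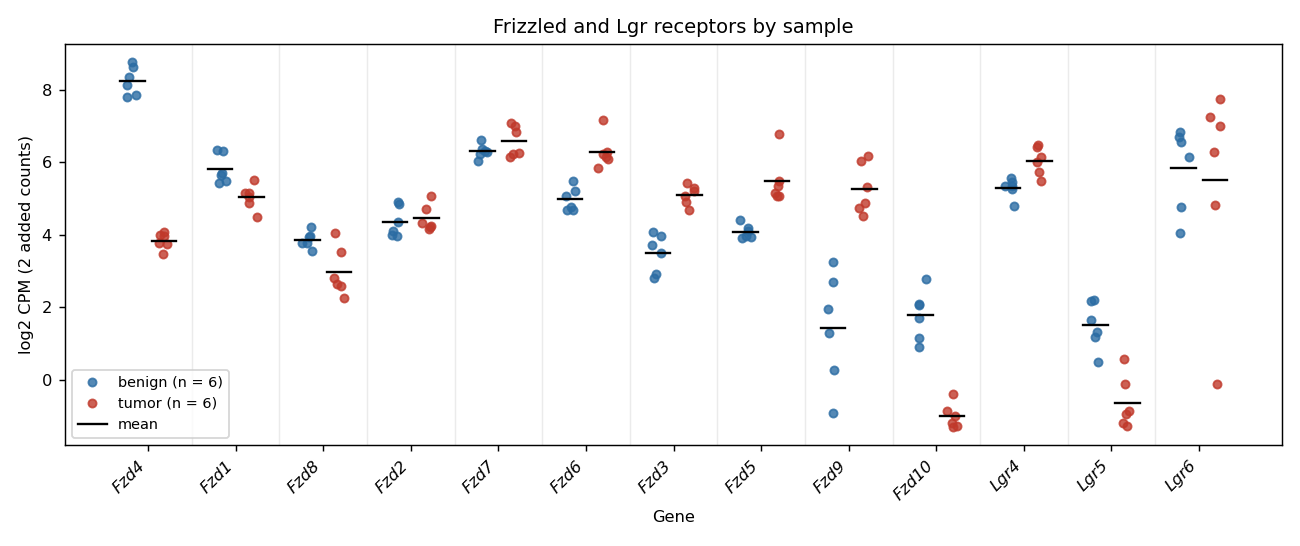
Level of 10 Frizzled and 3 Lgr receptors (x axis) as log2 CPM with 2 added counts (y axis) in 6 benign samples and 6 tumors, 1 point per sample, with bars at the group means. Fzd4 and Fzd10 are lower in every tumor, Fzd3, Fzd5, Fzd6 and Fzd9 higher in every tumor, and Lgr6 holds a single low tumor at 0.639 CPM.

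All 7 secreted inhibitors in the table were tested, and 5 were lower (71.4%, where 34.8% of all tested genes were lower), Sfrp1 was higher and Dkk2 was not called. Inhibitors could pass the filter through the benign group alone, as did Sfrp5 and Wif1, with tumor counts of 0 to 8 and 1 to 11. Where at least 10 counts were required in every sample, only Sfrp1 (higher), Sfrp2 and Sfrp4 (both lower) remained. Sfrp5, an inhibitor made by fat tissue and epithelium, was at 20.01 to 78.2 CPM (median 65.8) in benign tissue and 0 to 0.878 CPM (median 0.425) in tumors, with no overlap. Its log2 fold change of -7.01, SE 0.48, adjusted p = 8.9e-08 by edgeR was the largest fall among the inhibitors. Wif1, which binds Wnts directly, was at 4.62 to 35.5 CPM (median 21.2) and 0.120 to 1.21 CPM (median 0.334) (log2 fold change -5.28, SE 0.66, adjusted p = 2.0e-05 by edgeR). Its benign values were lowest in samples 4 and 6, at 5.34 and 4.62 CPM, and still above every tumor. Dkk3, a divergent member of the Dickkopf family, was at 14.02 to 27.5 CPM (median 16.2) and 1.25 to 4.45 CPM (median 3.34) (log2 fold change -2.53, SE 0.28, adjusted p = 6.6e-06 by edgeR). Sfrp2, made largely by fibroblasts, was at 12.4 to 34.1 CPM (median 21.6) and 1.53 to 7.47 CPM (median 3.79) (log2 fold change -2.40, SE 0.36, adjusted p = 8.6e-05 by edgeR), and Sfrp4 at 7.23 to 25.4 CPM (median 11.96) and 2.20 to 4.21 CPM (median 2.59) (log2 fold change -2.34, SE 0.32, adjusted p = 4.3e-05 by edgeR). The 3 genes showed no overlap between groups. All 8 fibroblast markers fell with them, as did all 8 white adipocyte, all 8 basal and myoepithelial and all 8 endothelial markers. The part of any of these cells was not tested.

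Sfrp1, an inhibitor of the mammary epithelium, went the other way. It was at 17.6 to 48.6 CPM (median 30.4) in benign tissue and 32.8 to 185 CPM (median 108) in tumors, so that tumors 1 and 6, at 44.1 and 32.8 CPM, lay within the benign range and the other 4 above it. The log2 fold change was 1.79, SE 0.41, adjusted p = 0.0022 by edgeR. Per length, Sfrp1 made up 13.4% of the summed Sfrp level in benign tissue (7.06 CPM per kilobase) and 89.3% in tumors (24.5), while Sfrp5 went from 59.8% (31.4 CPM per kilobase) to 0.833% (0.228). Dkk2 was at 1.48 to 3.55 CPM in benign tissue and 0.778 to 1.93 CPM in tumors, with a log2 fold change of -0.53 and an interval of -1.18 to 0.13.

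Rspo1 and Rspo3, ligands of the Lgr receptors, moved in opposite directions. Each passed the filter through the group in which it was high, with 17 counts of Rspo1 in all tumors and 32 of Rspo3 in all benign samples. Rspo4, from the list of other pathway genes, was below the filter, at at most 2.997 CPM in benign tissue and at most 0.241 CPM in tumors. Rspo1 was at 11.4 to 213 CPM (median 119) in benign tissue and 0 to 1.43 CPM (median 0.138) in tumors, a ratio of means of 354. Benign levels of Rspo1 themselves ranged widely, with 11.4 CPM in sample 6 and 44.0 CPM in sample 4 at the low end, yet every benign sample exceeded every tumor. The log2 fold change was -8.28, SE 0.92, adjusted p = 6.7e-06 by edgeR, and -9.81 without tumor 6, which held 13 of the 17 counts in tumors. Rspo3, made by stroma and endothelium in many tissues and known as a site of MMTV insertion, was at 0.355 to 1.67 CPM (median 0.708) in benign tissue and 1.54 to 23.3 CPM (median 4.64) in tumors. The lowest tumor value, 1.54 CPM in tumor 6, fell below the highest benign value, so the ranges met. Its log2 fold change was 3.13, SE 0.66, adjusted p = 0.0014 by edgeR, and 2.31 without tumor 5, the highest sample at 23.3 CPM.

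Of the R-spondin receptors, Lgr4 was at 27.4 to 47.2 CPM (median 40.5) in benign tissue and 44.5 to 88.7 CPM (median 66.9) in tumors, with a small overlap (log2 fold change 0.77, SE 0.18, adjusted p = 0.0028 by edgeR). Lgr6, known in myoepithelial and luminal progenitors, was at 16.2 to 115 CPM (median 82.6) and 0.639 to 216 CPM (median 103). Here 4 tumors lay between 78.0 and 216 CPM, tumor 1 at 27.9 CPM and tumor 5 at 0.639 CPM, and the log2 fold change of 0.49 had an interval of -1.22 to 2.21. Lgr5, itself a target of the pathway, was below the filter at 1.12 to 4.28 CPM (median 2.54) and 0.138 to 1.21 CPM (median 0.255) (exact p = 0.00433). Per length, Lgr6 (10.4 CPM per kilobase in benign tissue, 14.7 in tumors) and Lgr4 (6.72 and 11.5) exceeded Lgr5 (0.272 and 0.043) in both groups. Both ubiquitin ligases rose. Rnf43 was at 6.21 to 38.8 CPM (median 25.3) in benign tissue and 94.2 to 131 CPM (median 114) in tumors, where every tumor lay above every benign sample (log2 fold change 2.20, SE 0.34, adjusted p = 1.2e-04 by edgeR). Znrf3 was at 11.2 to 19.9 CPM (median 14.9) and 19.8 to 36.3 CPM (median 26.1), with the lowest tumor just below the highest benign sample (log2 fold change 0.86, SE 0.19, adjusted p = 0.0017 by edgeR).

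**Figure D4:**
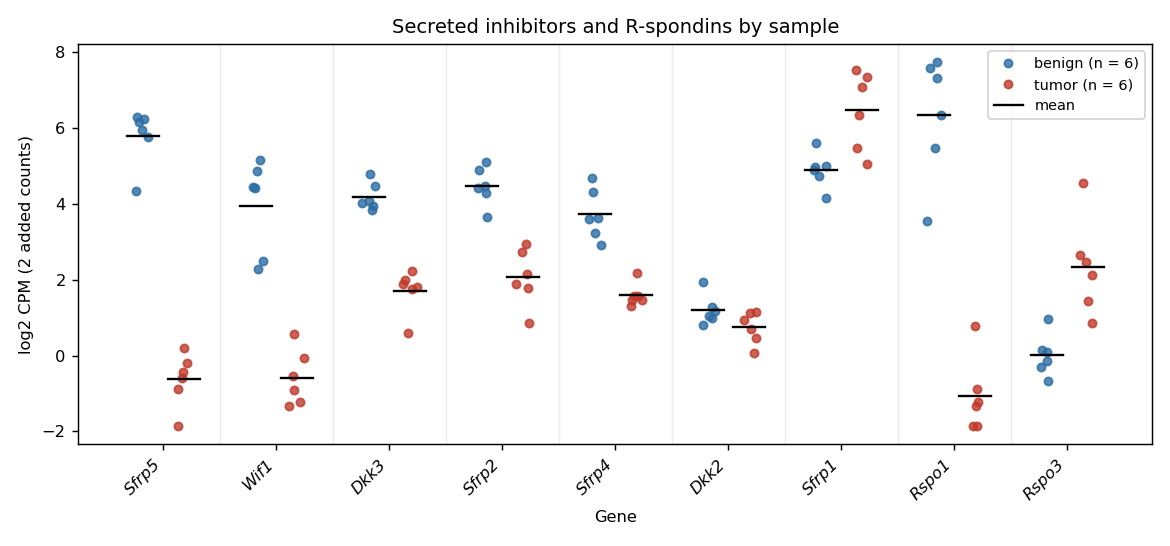
Level of 7 secreted inhibitors and 2 R-spondins (x axis) as log2 CPM with 2 added counts (y axis) in 6 benign samples and 6 tumors, 1 point per sample, with bars at the group means. Sfrp5, Wif1, Dkk3, Sfrp2, Sfrp4 and Rspo1 are lower in every tumor, and the mean of Sfrp1 and of Rspo3 is higher in tumors.

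Among the target and feedback genes, Axin2, a scaffold of the destruction complex and a widely used readout of beta-catenin activity, differed most. It was at 34.4 to 43.7 CPM (median 41.1) in benign tissue and 0.405 to 1.65 CPM (median 0.595) in tumors, a ratio of means of 46.3. The benign samples lay close together and no tumor approached them, and the log2 fold change was -5.47, SE 0.33, adjusted p = 3.0e-08 by edgeR. Nkd1, an inhibitor that binds Dishevelled, was at 14.2 to 46.7 CPM (median 20.6) in benign tissue and 0.623 to 19.2 CPM (median 1.36) in tumors. Of the tumors, 5 lay between 0.623 and 1.69 CPM, below every benign sample, and tumor 5 lay within the benign range at 19.2 CPM. The log2 fold change was -2.50, SE 0.78, adjusted p = 0.015 by edgeR, and -4.22 without tumor 5. All 8 basal and myoepithelial markers fell in the same tumors as Axin2, as did all 8 white adipocyte, all 8 fibroblast and all 8 endothelial markers. The part of any of these cells in the falls of Axin2, Nkd1, Rspo1 and Wif1 was not tested. Lef1, a TCF/LEF factor that lymphocytes also express, was at 90.4 CPM in benign sample 1, at most 0.888 CPM in the other benign samples, and 0.128 to 2.56 CPM (median 0.733) in tumors (exact p = 0.84). Benign sample 1 was also the sample with 1200 CPM of lymphocyte markers, and the part of lymphocytes in its Lef1 level was not tested. Rnf43 and Znrf3, described above, are also known as targets of the pathway, and both were called higher where Axin2 and Nkd1 were called lower.

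**Figure D5:**
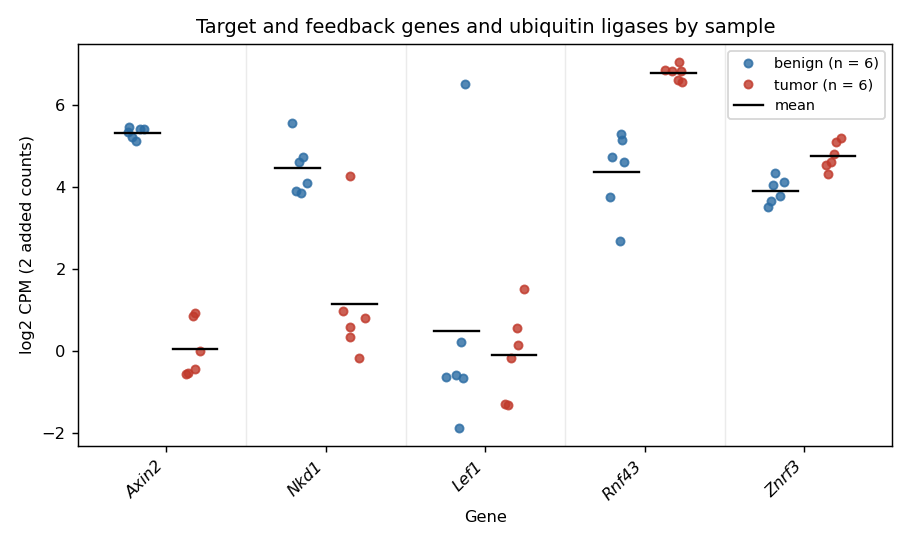
Level of Axin2, Nkd1, Lef1, Rnf43 and Znrf3 (x axis) as log2 CPM with 2 added counts (y axis) in 6 benign samples and 6 tumors, 1 point per sample, with bars at the group means. Axin2 is lower and Rnf43 higher in every tumor, Nkd1 is lower in 5 of 6 tumors, and Lef1 is high only in benign sample 1.

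Within the 6 benign samples, the members at 5 CPM or more that varied most alike were Lgr6 with Wif1 (Pearson r = 0.98, Spearman rho = 0.94), Lgr6 with Rspo1 (0.98 and 1.0), Rnf43 with Rspo1 (0.97 and 0.89) and Lgr6 with Rnf43 (0.97 and 0.89), of 378 pairs of 28 genes on log2 CPM. All were lowest in benign samples 4 and 6, which also had the lowest sums of basal and myoepithelial markers, 853 and 742 CPM against 998 to 1640 CPM in the other benign samples. The luminal list was mixed, with sums of 1799 and 956 CPM there against 1216 to 2612 CPM. Of its genes, Elf5, Cdh1 and Cldn3 were lowest in samples 4 and 6, Prom1 was highest there, and Epcam, Krt8, Krt18 and Krt19 did neither. The same 2 samples had the highest sums of white adipocyte markers, 18626 and 14836 CPM against 8199 to 11353 CPM, and of brown adipocyte markers, 3118 and 872 CPM against 44.5 to 194 CPM, and both held skeletal muscle transcripts, so these cell types cannot be told apart here. With 6 points from the same libraries these values are a description. In tumors, Rspo1 and Wif1 fell while Rnf43 rose and Lgr6 was not called.

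Of the 59 other genes of the pathway in the table, 54 were tested, and 17 were higher (31.5%), 15 lower (27.8%) and 22 not called, with a median log2 fold change of 0.06. These shares lay near those of all tested genes, 28.2% higher and 34.8% lower. The coreceptors rose. Lrp5 was at 135 to 202 CPM (median 188) in benign tissue and 305 to 586 CPM (median 367) in tumors (log2 fold change 1.15, SE 0.17, adjusted p = 1.0e-04 by edgeR), and Lrp6 at 67.9 to 91.2 CPM (median 78.5) and 127 to 249 CPM (median 186) (log2 fold change 1.29, SE 0.16, adjusted p = 1.9e-05 by edgeR), both without overlap. Ctnnb1, which encodes beta-catenin, was at 366 to 554 CPM (median 483) and 496 to 867 CPM (median 633) (log2 fold change 0.47, SE 0.17, adjusted p = 0.029 by edgeR), and its adjusted p was 0.108 without benign samples 3, 4 and 6. Among the TCF factors, Tcf7l1 was at 52.2 to 83.4 CPM (median 63.6) and 6.38 to 17.4 CPM (median 13.99) (log2 fold change -2.36, SE 0.22, adjusted p = 1.4e-06 by edgeR), and Tcf7l2 at 49.2 to 114 CPM (median 75.0) and 30.7 to 59.8 CPM (median 51.5) (log2 fold change -0.73, SE 0.22, adjusted p = 0.012 by edgeR). Tcf7, a factor of T lymphocytes, had a log2 fold change of -4.97, SE 1.10, adjusted p = 0.0019 by edgeR with 212 CPM in benign sample 1, and -3.08 without that sample.

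Besides Lrp6, the largest rises among the called pathway genes with a mean of at least 5 CPM in the higher group were those of Prickle2 (log2 fold change 2.76), a planar polarity gene, Tle2 (2.68), a co-repressor of TCF factors, Celsr2 (2.54), a polarity cadherin, and Dact2 (1.33), which binds Dishevelled. All 6 tumors exceeded all benign samples for each of these 4 genes. The largest falls were those of Sostdc1 (-6.18), an inhibitor that binds Lrp coreceptors, Apcdd1 (-5.72), an inhibitor of the pathway and a known target of it, Tcf7 (-4.97), Adgra2 (-2.97), a coactivator of Wnt7 signaling in endothelium, and Gpc3 (-2.62), a glypican that binds Wnts. Apcdd1 was at 91.4 to 160.3 CPM (median 133) in benign tissue and 0.810 to 5.54 CPM (median 1.90) in tumors. Frzb, a secreted Wnt binder close to the Sfrp family and below the filter, was at 13.9, 15.9 and 28.6 CPM in benign samples 3, 4 and 6, at 0.741 to 2.50 CPM in the other benign samples and at most 0.138 CPM in tumors. Its high samples were those with skeletal muscle transcripts, whose part in the Frzb level was not tested.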

How the data were processed

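Poly A RNA of 6 tumors and 6 benign samples was sequenced from a directional library. Per the labels, reads were trimmed with Trim Galore and quantified with Salmon against mm10, and the authors deposited each gene's estimated count as a whole number, not scaled. Salmon's version, the annotation and the strand setting are not given in the sources used here. Exons of 9 members overlap a gene on the other strand, and none of those genes has a row.

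From the counts, genes with low counts were removed by filterByExpr of edgeR 4.0.16 (at least 10 counts in enough samples, at least 15 in all), TMM factors were computed, and the two-sided quasi-likelihood test was run in R 4.3.3, with Benjamini-Hochberg adjustment over 13191 genes and a threshold of 0.1. Intervals are 95%. Log2 CPM used 2 added counts. Counting error and the spread between mice enter the test (common biological coefficient of variation 0.351). Replicates differed by more than sampling noise. Columns without a sample numbered 0. Exon lengths came from GENCODE M21 and promoters from RefSeq (GRCm38.p6). The labels number the samples 1 to 6 in each group. The paper states that tumors and benign samples came from different mice, so the numbers do not pair them. The deviations of same-numbered samples correlated at -0.124 to 0.103, which alone could not exclude pairing, because the tissues differ in cell content.

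The members, lists and tests were chosen with earlier results of these data known. Full values go to called members with a mean of at least 5 CPM in the higher group and to all tested members of the last 3 roles. Of the other pathway genes, the 5 largest rises and 5 largest falls and Ctnnb1, Lrp5, Lrp6, Tcf7, Tcf7l1, Tcf7l2 and Frzb are named, and values of other members were added for context. The alternatives were DESeq2 1.42.0, other scalings, filters and thresholds, a replicate block and leaving out samples. The fit was tested on simulated data.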

Additional observations from a re-analysis of the deposited data

Results flagged for a closer look

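A lone sample was looked for in 85 sets of 6 values (log2 CPM of a gene in a group), where chance gives about 1 in 20, and 13 were found by Dixon's test. That rate does not hold for Wnt1, Wnt8a and Wnt8b in tumors, where 1 count against 0 in the other samples is always flagged. Tumor 5, which held 150.0 CPM of skeletal muscle markers where the other tumors held 0.843 to 9.04 CPM, stood apart for 5 members, and the part of muscle was not tested. It was the highest tumor for Fzd5 (111 CPM, the others 33.5 to 44.7 CPM), Fzd6 (143 CPM, the others 57.3 to 78.2 CPM) and Nkd1 (19.2 CPM, the others 0.623 to 1.69 CPM) and the lowest for Lgr6 (0.639 CPM, the others 27.9 to 216 CPM), and for Wnt8b it held 1 count (0.128 CPM) where the others held 0. Benign sample 1 was high for Lef1 (90.4 CPM, the others at most 0.888 CPM) and low for Sfrp5 (20.01 CPM, the others 53.6 to 78.2 CPM), and benign sample 4, which also had the highest sum of brown adipocyte markers (3118 CPM, the others 44.5 to 872 CPM), was high for Wnt7b (16.4 CPM, the others 6.30 to 8.17 CPM). Their part was not tested. In other tumors, Dkk3 was low in tumor 1 (1.25 CPM, the others 3.07 to 4.45 CPM), Sfrp4 was high in tumor 3 (4.21 CPM, the others 2.20 to 2.70 CPM) and Rspo1 was high in tumor 6 (1.43 CPM, 13 counts, the others at most 0.270 CPM). Wnt1 in tumor 1 (0.156 CPM) and Wnt8a in tumor 2 (0.138 CPM) were single counts.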

How the results depend on the processing

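Over all alternatives, 8 to 10 members were called higher. The number called lower was 16, and it was 14 with total counts or a threshold of 0.05. Without benign samples 3, 4 and 6 it was 15. Where at least 10 counts were required in every sample, which admits 16 members, it was 6. DESeq2 gave 22 and edgeR with genes of at least 1 count 24, but both settings admit all 43 members. In each, 16411 genes entered, and 9611 and 10054 were called in either direction. The 24 include members with few reads, such as Wnt8b (10 counts in benign tissue, 1 in tumors, adjusted p = 0.065 by edgeR). Lef1 is also among them (adjusted p = 0.056 by edgeR), although it rests on benign sample 1 and had an exact p of 0.84. Leaving out 1 sample gave 9 to 10 higher and 14 to 19 lower, and 17 to 19 and 14 to 15 of the other pathway genes. With the replicate number as a block, 9 members were higher and 17 lower, and 17 and 16 of the other pathway genes. The added call was that of Wnt7b (log2 fold change -1.73, adjusted p = 0.091 by edgeR). Of 636 values of single members under the alternatives, 593 kept their direction and side of the threshold, 27 lost the call (Fzd8, Wnt5a and Wnt9a), 10 gained it (Fzd7 and Wnt7b) and 6 changed sign. The sign changed only for 2 members that were not called. The log2 fold change of Fzd2 ran from -0.011 (without tumor 5) to 0.26 (without benign sample 2) with 1 sample left out, and was -0.14 without benign samples 3, 4 and 6 and -0.058 without benign samples 4 and 6. That of Wnt5b ran from -0.46 (without tumor 3) to 0.12 (without tumor 5), and was 0.02 without benign sample 2 and 0.09 without tumor 1. The cause was not tested. Tumor counts of Wnt1, Wnt8a, Wnt8b and Wnt10a were 0 or 1 in total, so depth limits what can be said of them.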

Other observations

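Tumor 5 was also the highest tumor for pathway genes that were named after their values were seen. Ror2, a Wnt5a receptor, was at 49.4 CPM in tumor 5 where the benign range was 3.74 to 16.7 CPM and the tumor median 2.18 CPM, and its log2 fold change was 0.04 with all samples and -2.21 without tumor 5. Celsr1, a polarity cadherin, was at 59.8 CPM in tumor 5 with a tumor median of 5.12 CPM, and its log2 fold change was 1.24 with all samples and -0.30 without tumor 5. Nkd2, the paralog of Nkd1, was at 39.0 CPM in tumor 5 with a tumor median of 11.9 CPM, but tumor 5 stood less far apart. Tumor 3, at 24.6 CPM, also lay above the benign range of 5.33 to 16.5 CPM. The acyltransferase Porcn, which adds the lipid to Wnts, had a log2 fold change of -0.15 and was not called, and Wls, which carries Wnts to the cell surface, rose by 0.42 (adjusted p = 0.0032 by edgeR) with every tumor above every benign sample.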
